A study of Mus musculus with 12 samples.

Results

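The mitochondrial carrier family Slc25 is a group of nuclear-encoded transport proteins, most of which sit in the inner mitochondrial membrane. Every gene of the count table whose mouse symbol begins with Slc25a was taken, apart from 2 genes that are not reported, which gave 45 genes of 27179. Of these 45 members, 36 passed the filter on low counts and were tested, and 9 were not. Carriers exchange metabolites between the cytosol and the mitochondrial matrix, typically one molecule in for another out, and each is fairly specific for its substrates. In heart muscle, which makes nearly all of its ATP in mitochondria, the ADP/ATP and phosphate carriers feed ATP synthase and return its product to the myofibrils. The malate-aspartate shuttle, which runs through the 2-oxoglutarate/malate and aspartate/glutamate carriers, brings reducing equivalents from cytosolic NADH into the matrix.

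RNA was sequenced from mouse hearts taken at 15 weeks of age, with 3 libraries in each of 4 groups. DE TAC hearts came from animals exposed in utero to diesel exhaust (DE) and operated on with transverse aortic constriction (TAC), a tie around the aorta, sized with a 27-gauge needle, that puts the left ventricle under pressure load. DE sham hearts had the same exposure and a sham operation, FA TAC hearts had filtered air (FA) in utero and TAC, and FA sham hearts had filtered air and a sham operation. Exposure ran from E0.5 to E17.5 of gestation, all offspring were then kept in filtered air, echocardiography was done at 11 weeks and surgery at 12 weeks. The labels give no sex, litter or severity of constriction for single animals. Hearts of 1 group may share a litter, so p-values measure the spread between these samples, and for exposure they would then be too small.

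Total counts per library were 5534685 to 13265816, and 3 counts, the floor used for detection, were 0.218 to 0.501 CPM, counts scaled to a common library size. Levels are in CPM after TMM scaling, or in CPM per kb of exon where genes are compared with each other. Replicate numbers follow the order in which the samples are listed, since the labels give none. In each group, the library farthest from the group's median on the first component of the residuals was taken as standing apart. The rule thus fixes 1 library per group, and residuals are centred in each group, so a group's values balance. It picked replicate 1 in each group: these 4 had values of 0.29 to 0.48, against -0.27 to -0.11 in the other 8 libraries. This component held 37.6% of the residual variance. Per the labels, 4 samples shared each sequencing run, but the labels do not say which ones, so a run cannot be assigned. The family touches this split directly, since its members took 0.523% to 0.667% of the counts in those 4 libraries and 0.38% to 0.483% in the other 8. Results are therefore given for all 12 libraries and also with a term for these 4 libraries or without them. Both of these fits were chosen after the data were seen.

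Levels across the family spanned more than 3 orders of magnitude in FA sham hearts. Slc25a4, the ADP/ATP carrier of heart and skeletal muscle, averaged 1854 ± 540 CPM per kb in FA sham hearts (SD, n = 3) and made up 68.4% of the summed level per length of the family. It ranked 21 of 21559 genes by level per length in these hearts. Slc25a3, the phosphate carrier, followed at 11.9% of the family's sum, then Slc25a11, the 2-oxoglutarate/malate carrier, at 6.08%, and Slc25a5, the second ADP/ATP carrier, at 3.24%.

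Below these 4, the aspartate/glutamate carriers Slc25a12 and Slc25a13, the orphan carrier Slc25a34 and the glutathione carrier Slc25a39 lay close together. In FA sham hearts Slc25a12 had 47.6, 35.4 and 39.5 CPM per kb and Slc25a13 had 37.2, 39 and 36.1 CPM per kb. Slc25a34 had 37.6, 37.1 and 33.8 CPM per kb and Slc25a39 had 28.3, 35 and 35.5 CPM per kb, so neighbours in the order of the means overlapped, while each Slc25a13 value was above each Slc25a39 value. The ninth, the NAD+ carrier Slc25a51, was lower than all of them in each FA sham library, at 15.3, 12.5 and 9.98 CPM per kb. Slc25a42, which carries coenzyme A, was next with 13.9, 11.4 and 9.54 CPM per kb, a range that overlapped that of Slc25a51.

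**Figure D1:**
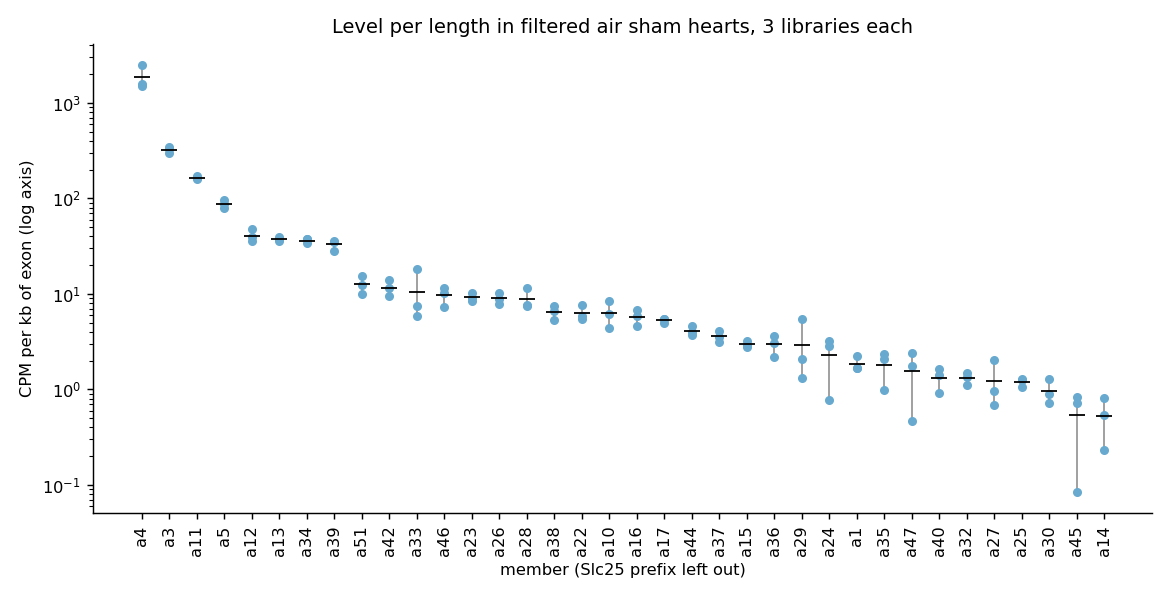
Level of the 36 tested carriers in FA sham hearts, in CPM per kb of exon on a log axis, ordered by the group mean. Points are the 3 libraries, grey lines join the lowest and highest, and black bars are means: Slc25a4 stands alone at the top, and the order is unresolved wherever neighbouring ranges overlap.

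The 9 members that did not pass the filter were at or near the limit of detection. Slc25a41, Slc25a48 and Slc25a54 had no count in any of the 12 libraries. Slc25a21, an oxodicarboxylate carrier, had 2 counts in all and Slc25a31, the ADP/ATP carrier of male germ cells, had 9. Slc25a2, an ornithine carrier, had 18 counts, Slc25a43 had 19, Slc25a18, a glutamate carrier, had 41 and Slc25a53 had 46. Nothing is said of differences in these genes, since most of their values lie near 3 counts a library.

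TAC against sham after diesel exhaust asked how the carriers differ under pressure load in animals with the prenatal exposure. Of the 36 tested members, 3 were called at an edgeR adjusted p under 0.05, and all 3 were lower: Slc25a42, Slc25a34 and Slc25a22. Over all 13626 genes tested, 3.24% were called in this comparison, 1.75% higher and 1.49% lower, so none of the 36 carriers was called higher and 3 were called lower. The median log2 fold change was -0.05 over the 36 members and 0 over all genes. In bulk tissue, fewer cells of a type and less RNA per cell cannot be told apart.

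Slc25a42 supplies the matrix with coenzyme A in exchange for adenine nucleotides. It had 24.8, 20.5 and 15 CPM in DE TAC hearts, against 37.9, 40.6 and 46.5 CPM in DE sham hearts. Each DE TAC library was below each DE sham library. The log2 fold change was -1.05 ± 0.25 (SE), with an edgeR adjusted p of 0.0208. With the term for the 4 libraries it was -1.09 with an adjusted p of 0.00189, and without those libraries -1.29 with an adjusted p of 0.00229. The call was lost when DE sham replicate 3, DE TAC replicate 2 or DE TAC replicate 3 was left out, with an edgeR adjusted p of up to 0.144.

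Slc25a34, a carrier whose substrate is not well defined, had 57.1, 71.8 and 66.8 CPM in DE TAC hearts, against 88.2, 123 and 99.6 CPM in DE sham hearts. Here too the groups did not overlap. Its log2 fold change was -0.67 ± 0.18, with an edgeR adjusted p of 0.0417. The adjusted p was 0.0163 with the term for the 4 libraries and 0.0694 without them, at the same fold change of -0.67 in both fits. This call was near the threshold: it was lost in 8 of the 12 fits that left out 1 library, namely FA sham replicates 2 and 3, FA TAC replicate 3, DE sham replicates 2 and 3 and every DE TAC replicate, with an edgeR adjusted p of up to 0.159. Library totals, or a fit of only the libraries of this comparison, lost the call as well.

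Slc25a22 is a mitochondrial glutamate carrier that moves glutamate together with protons. It had 9.79, 9.59 and 6.56 CPM in DE TAC hearts, against 17.7, 18.1 and 15.4 CPM in DE sham hearts. The groups did not overlap, and the log2 fold change was -0.98 ± 0.27 with an edgeR adjusted p of 0.049. With the term for the 4 libraries the adjusted p was 0.0201, and without them it was 0.0492 at a log2 fold change of -1.04. In 9 of the 12 fits that left out 1 library the call was lost, those without FA sham replicates 2 or 3, FA TAC replicate 3, any DE sham or any DE TAC replicate, with an edgeR adjusted p of up to 0.226. The call was also lost with library totals and in a fit without the mitochondrially encoded genes.

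Slc25a11 lay just outside the edgeR threshold in this comparison, and DESeq2 (adjusted p 0.00427), limma voom (0.0433) and a filter of 1 CPM in 3 libraries (0.0482) called it lower. With edgeR it was also called without FA TAC replicate 1 (adjusted p 0.0434) or 2 (0.0354). It exchanges 2-oxoglutarate for malate and is one arm of the malate-aspartate shuttle. It had 220, 236 and 227 CPM in DE TAC hearts, against 332, 360 and 307 CPM in DE sham hearts. The spread within each group was small beside the gap between them, with a log2 fold change of -0.55 ± 0.15 and an edgeR adjusted p of 0.0506. The adjusted p was 0.0219 with the term for the 4 libraries and 0.167 without them. Its gene span overlaps that of Rnf167, a ubiquitin ligase gene, by 302 bases, and reads there could count for either gene where exons meet, because the strand setting of the counting is not given in the sources used here.

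**Figure D2:**
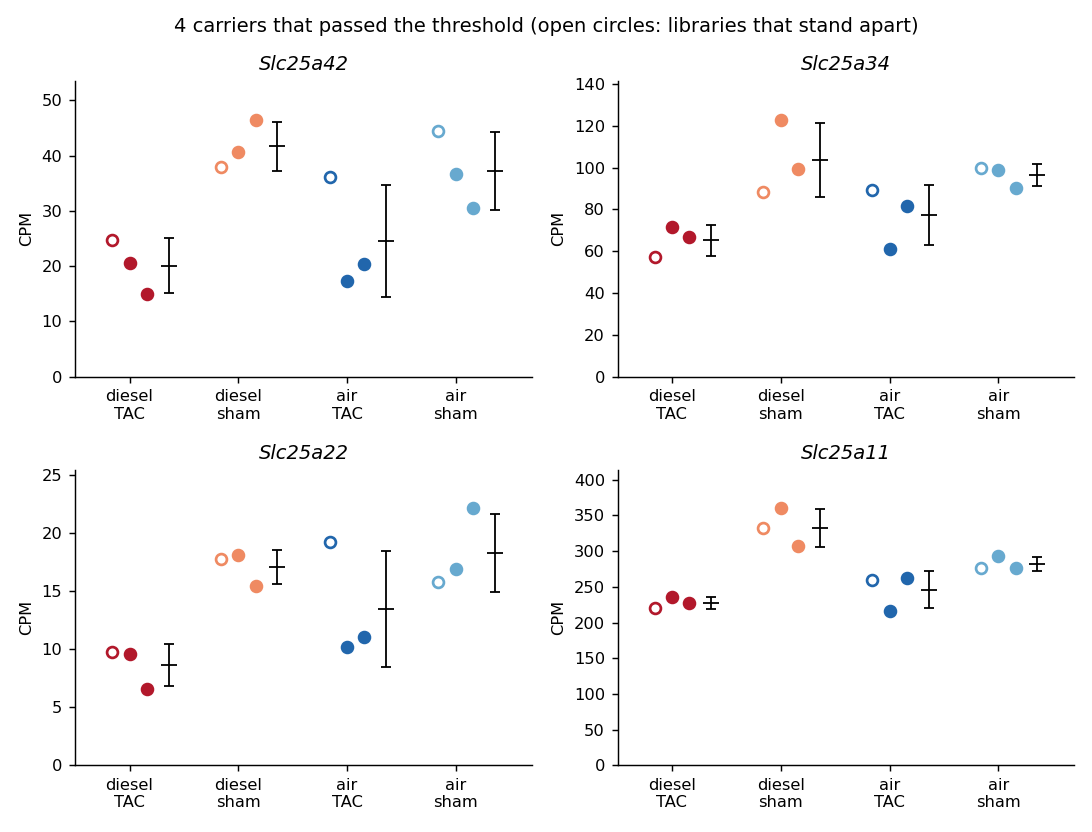
CPM of Slc25a42, Slc25a34, Slc25a22 and Slc25a11 in each library by group, from left DE TAC, DE sham, FA TAC and FA sham, with axes from 0. Open circles are the 4 libraries that stand apart, and black bars are the mean ± SD of 3 libraries: in all 4 genes each DE TAC library lies below each DE sham library, while FA TAC and FA sham overlap for Slc25a42 and Slc25a22.

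At an unadjusted edgeR p under 0.05, 10 of the 36 carriers differed after diesel exhaust, 8 lower and 2 higher, against 15.9% of all genes. In 10 of 36 members each DE TAC library was below each DE sham library, against 11.2% of all genes, and in 4 of 36 each was above, against 11.1%. The 10 were Slc25a11, Slc25a12, Slc25a13, Slc25a22, Slc25a26, Slc25a33, Slc25a34, Slc25a35, Slc25a39 and Slc25a42. The 4 were Slc25a1, Slc25a5, Slc25a24 and Slc25a36.

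Among those that missed the threshold, the pyrimidine nucleotide carriers gave estimates of opposite sign. Slc25a33 had 8.41, 13.5 and 9.75 CPM in DE TAC hearts, against 17.9, 25.6 and 19.8 CPM in DE sham hearts (log2 fold change -1.0 ± 0.33, edgeR adjusted p 0.113). Slc25a36 averaged 16.8 ± 0.7 CPM in DE TAC hearts and 11.1 ± 2.7 CPM in DE sham hearts (SD, n = 3 each), without overlap (log2 fold change 0.58 ± 0.24, edgeR adjusted p 0.228). The ratio of Slc25a36 to Slc25a33, in levels per length, was 0.691, 0.448 and 0.648 in DE TAC hearts, against 0.271, 0.116 and 0.216 in DE sham hearts. The ratios of the groups did not overlap, but this pair was picked with its values known and the ratio carries no test. In filtered air the ratio was 0.477, 0.399 and 0.304 in FA TAC hearts, against 0.407, 0.197 and 0.371 in FA sham hearts, and these overlapped.

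Slc25a1 exports citrate from the matrix, the first step in supplying acetyl groups to the cytosol. It had 5.44, 7.03 and 5.37 CPM in DE TAC hearts, against 2.43, 3.51 and 3.32 CPM in DE sham hearts, with a log2 fold change of 0.95 ± 0.37 and an edgeR adjusted p of 0.193. Slc25a29, a carrier of basic amino acids, had the lowest estimate of the family at -1.16 ± 0.48 with an edgeR adjusted p of 0.228. With the term for the 4 libraries it was called, at -1.23 with an adjusted p of 0.0332, and without them it was not, with an adjusted p of 0.115. Slc25a33 was likewise called with the term, with an adjusted p of 0.0423, and not without the 4 libraries, with an adjusted p of 0.319. It was also called without a filter (edgeR adjusted p 0.0313), in a fit of only the libraries of this comparison (0.0457) and without FA sham replicate 2 (0.0322). In the average over exposure Slc25a33 missed the threshold (edgeR adjusted p 0.069) and was called with the term (0.0272), with DESeq2 (0.0443), without a filter (0.0175), and without FA sham replicate 1 (0.0496) or 3 (0.0217), and not without the 4 libraries (0.201).

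TAC against sham after filtered air asked the same of animals without the exposure. No member was called, and 2 had an unadjusted edgeR p under 0.05, against 0.829% of all genes called, 0.609% higher and 0.22% lower, and 11.1% at an unadjusted p under 0.05. DESeq2 and limma voom called none either. The count of 2 rests on single libraries: it was 0 without FA sham replicate 1 or FA TAC replicate 2, 3 without FA sham replicate 3, 5 without FA TAC replicate 1 and 6 without the 4 libraries that stand apart, and it was 1 with library totals and 3 with the term for the 4 libraries. The median log2 fold change was -0.14 over the 36 members and 0.01 over all genes. Each FA TAC library was below each FA sham library in 2 of 36 members, Slc25a11 and Slc25a34, against 7.57% of all genes, and above in 2 of 36, Slc25a25 and Slc25a45, against 8.2%.

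The member with the smallest p was Slc25a25, a calcium-regulated carrier that exchanges ATP-Mg for phosphate. It had 7.26, 12.7 and 6.93 CPM in FA TAC hearts, against 4.34, 5.29 and 5.19 CPM in FA sham hearts, with a log2 fold change of 0.86 ± 0.34 and an edgeR adjusted p of 0.334. Its gene span overlaps that of Naif1 by 1014 bases, with the same uncertainty as for Slc25a11. Slc25a42 was second: it had 36.1, 17.3 and 20.3 CPM in FA TAC hearts, against 44.5, 36.6 and 30.5 CPM in FA sham hearts. The FA TAC library that overlaps the sham hearts is replicate 1, which stands apart. The log2 fold change was -0.60 ± 0.25 with an edgeR adjusted p of 0.356, and without the 4 libraries it was -0.84 with an adjusted p of 0.0925.

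The other carriers lower after diesel exhaust had estimates of the same sign in filtered air, none of them called. Slc25a34 had 89.2, 61.2 and 81.6 CPM in FA TAC hearts, against 100, 99 and 90.4 CPM in FA sham hearts, a log2 fold change of -0.32 ± 0.18. Slc25a22 had 19.2, 10.2 and 11 CPM in FA TAC hearts, against 15.8, 16.9 and 22.1 CPM in FA sham hearts, a log2 fold change of -0.44 ± 0.27. In Slc25a22 it is again replicate 1 that lies among the sham hearts, and without the 4 libraries the log2 fold change was -0.89 with an edgeR adjusted p of 0.172. Slc25a11 had 259, 216 and 263 CPM in FA TAC hearts, against 276, 293 and 277 CPM in FA sham hearts, a log2 fold change of -0.20 ± 0.15.

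Averaged over both exposures, TAC hearts had 4 carriers called, all lower, of the 36 tested, against 8.01% of all genes, 4.1% higher and 3.91% lower. They were Slc25a42 (log2 fold change -0.82 ± 0.18, edgeR adjusted p 0.00487), Slc25a34 (-0.49 ± 0.13, 0.0168), Slc25a22 (-0.71 ± 0.19, 0.0233) and Slc25a11 (-0.37 ± 0.11, 0.0354). Slc25a42 was called in each of the 12 fits that left out 1 library, with an edgeR adjusted p of at most 0.0206. Slc25a34 lost the call only without FA TAC replicate 2, with an adjusted p of 0.057. Slc25a22 lost it without FA sham replicate 3, FA TAC replicates 2 or 3 or DE TAC replicate 3, with an adjusted p of up to 0.0798. Slc25a11 kept it only in the fits without FA TAC replicates 1 or 3 or DE sham replicate 3, and its adjusted p reached 0.0899. The Slc25a11 call was also lost without a filter on counts.

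Without the 4 libraries that stand apart, the averaged log2 fold changes were -1.06 for Slc25a42 (edgeR adjusted p 0.000198), -0.96 for Slc25a22 (0.00376) and -0.54 for Slc25a34 (0.0181), and Slc25a11 was no longer called at -0.39 (0.0891). With library totals in place of TMM factors the median of all genes shifted to 0.11, and the calls were Slc25a42 lower and Slc25a25 higher, which makes 1 lower and 1 higher in place of 4 lower and 0 higher. Over all genes the same change gave 285 lower and 814 higher, against 533 lower and 558 higher with TMM. After diesel exhaust it gave 112 lower and 315 higher genes, against 203 lower and 239 higher, and Slc25a42 alone among the carriers. In filtered air it gave 17 lower and 90 higher genes, against 30 lower and 83 higher, and no carrier.

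**Figure D3:**
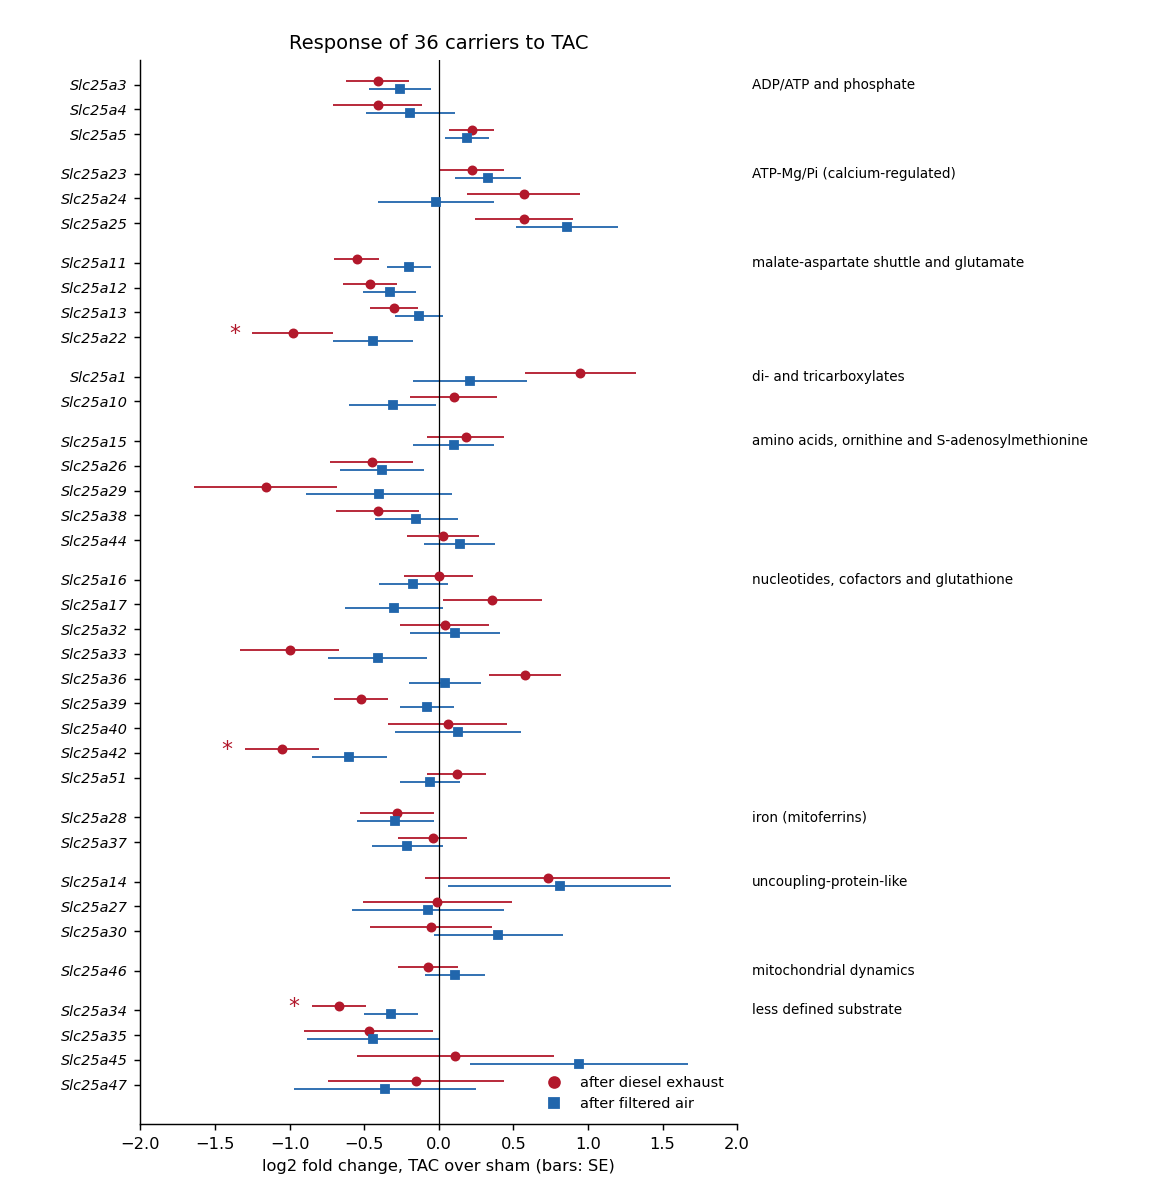
Log2 fold change of TAC over sham for the 36 tested carriers, grouped by role, after diesel exhaust (red circles) and after filtered air (blue squares). Bars are SE and asterisks mark an edgeR adjusted p under 0.05, which the 3 carriers Slc25a42, Slc25a34 and Slc25a22 reached after diesel exhaust and none reached after filtered air.

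By role, the malate-aspartate and glutamate carriers held 2 of the 4 averaged calls, Slc25a11 and Slc25a22. The other tested members of that role, Slc25a12 and Slc25a13, had negative estimates that did not pass in the fit of all 12 libraries. Slc25a12 had 176, 190 and 182 CPM in DE TAC hearts, against 277, 241 and 233 CPM in DE sham hearts. It had 257, 169 and 195 CPM in FA TAC hearts, against 302, 225 and 251 CPM in FA sham hearts. The averaged log2 fold change of Slc25a12 was -0.39 ± 0.12, with an edgeR adjusted p of 0.0545, and that of Slc25a13 was -0.22 ± 0.12, with an edgeR adjusted p of 0.291. Slc25a12 passed in the average with the term for the 4 libraries (edgeR adjusted p 0.0163), with DESeq2 (0.032), with limma voom (0.044), without a filter (0.0489) and without FA TAC replicate 1 (0.0134), and not without the 4 libraries (0.096). Its gene span overlaps a pseudogene by 517 bases.

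The ATP-Mg/phosphate carriers, which adjust the adenine nucleotide content of the matrix, had positive averaged estimates. These were 0.71 ± 0.24 for Slc25a25 (edgeR adjusted p 0.0711), 0.27 ± 0.16 for Slc25a23 (0.342) and 0.27 ± 0.27 for Slc25a24 (0.625), so none was called in the fit of all 12 libraries. Slc25a25 was called higher with the term for the 4 libraries (0.71, edgeR adjusted p 0.0491) and with library totals (0.82, 0.0404), and not without the 4 libraries (0.49, 0.28). The glutathione carrier Slc25a39 had 42.9, 64.4 and 55.6 CPM in DE TAC hearts, against 71.9, 90.6 and 70.6 CPM in DE sham hearts, with a log2 fold change of -0.52 ± 0.18 and an edgeR adjusted p of 0.138. Its relative Slc25a40 had an estimate of 0.06 ± 0.40 in the same comparison. The mitoferrins, which bring iron into the matrix, had averaged estimates of -0.28 ± 0.18 for Slc25a28 and -0.13 ± 0.17 for Slc25a37. Slc25a46, an outer membrane protein of mitochondrial fission and fusion, had 0.02 ± 0.14, and the NAD+ carrier Slc25a51 had 0.03 ± 0.14.

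The amino acid carriers gave mixed estimates in the average over exposure, none called. Slc25a26, which brings S-adenosylmethionine into the matrix for methylation, had -0.41 ± 0.19 with an edgeR adjusted p of 0.223, and its groups did not overlap after diesel exhaust, at 10.8, 11.7 and 13.4 CPM in DE TAC hearts against 13.9, 19.6 and 15.6 CPM in DE sham hearts. Slc25a38, the glycine carrier that feeds heme synthesis, had -0.28 ± 0.20, the ornithine carrier Slc25a15 had 0.14 ± 0.19 and the branched-chain amino acid carrier Slc25a44 had 0.09 ± 0.17. Among the cofactor carriers, Slc25a16 had -0.08 ± 0.16, the peroxisomal Slc25a17 had 0.03 ± 0.23 and the folate and FAD carrier Slc25a32 had 0.08 ± 0.21. The dicarboxylate carrier Slc25a10 had -0.11 ± 0.21.

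The low members had the widest errors. The relatives of the uncoupling proteins had averaged estimates of 0.77 ± 0.56 for Slc25a14, -0.04 ± 0.36 for Slc25a27 and 0.18 ± 0.30 for Slc25a30. Of those with a less defined substrate, Slc25a35 had -0.45 ± 0.31, Slc25a45 had 0.53 ± 0.49 and Slc25a47 had -0.25 ± 0.42. Slc25a14 lay at 0.508, 1.23 and 0.994 CPM in DE TAC hearts, against 0.638, 0.836 and 0.144 CPM in DE sham hearts, close to the floor of 3 counts.

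Slc25a4, the most abundant carrier, was not called in any comparison, and its libraries were widely spread. It had 3502, 2238 and 2070 CPM in DE TAC hearts, against 4876, 2723 and 2812 CPM in DE sham hearts. It had 4497, 2314 and 2554 CPM in FA TAC hearts, against 4757, 2884 and 3063 CPM in FA sham hearts. The first value of each group is the library that stands apart, and it is the highest of its group each time. Set within the 4 libraries, the TAC heart was below the sham heart in both exposures, and within the other 8 each TAC library was below each sham library of its exposure. The averaged log2 fold change was -0.30 ± 0.21 (edgeR adjusted p 0.458), -0.31 with the term for the 4 libraries (0.0837) and -0.32 without them (0.237).

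Slc25a5, the ADP/ATP carrier of proliferating and many other cells, had estimates of the opposite sign. It had 122, 114 and 116 CPM in DE TAC hearts, against 111, 89.8 and 102 CPM in DE sham hearts. It had 129, 124 and 118 CPM in FA TAC hearts, against 120, 99.3 and 107 CPM in FA sham hearts. The averaged log2 fold change was 0.20 ± 0.11, with an edgeR adjusted p of 0.294. The ratio of Slc25a4 to Slc25a5, in levels per length, was 18.5, 12.6 and 11.5 in DE TAC hearts, against 28.3, 19.5 and 17.7 in DE sham hearts. It was 22.4, 12 and 13.9 in FA TAC hearts, against 25.6, 18.7 and 18.4 in FA sham hearts. The ratios overlapped between TAC and sham over all libraries and did not overlap within the 8 libraries other than replicate 1, a description with no test.

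Slc25a3, the phosphate carrier, had 436, 359 and 331 CPM in DE TAC hearts, against 698, 350 and 445 CPM in DE sham hearts, and the groups overlapped. It had 523, 355 and 425 CPM in FA TAC hearts, against 553, 530 and 477 CPM in FA sham hearts. Its averaged log2 fold change was -0.33 ± 0.15, with an edgeR adjusted p of 0.203.

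**Figure D4:**
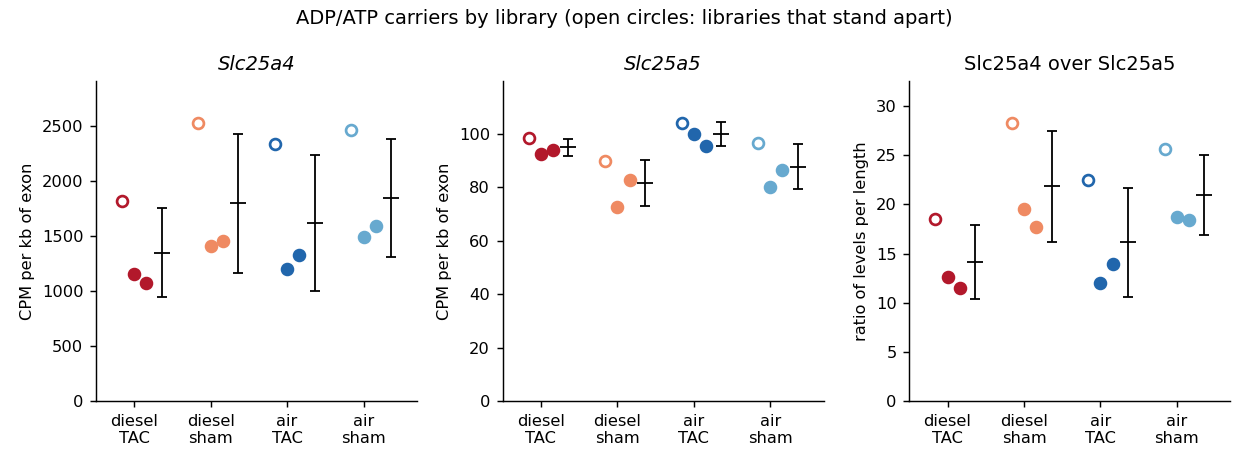
Slc25a4 and Slc25a5 in CPM per kb of exon and the ratio of their levels in each library, from left DE TAC, DE sham, FA TAC and FA sham, with axes from 0. Open circles are the 4 libraries that stand apart and bars are the mean ± SD of 3 libraries: the open circle is the highest Slc25a4 value in each group.

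Some of the cell type markers differed between TAC and sham hearts. The summed level of 8 ventricular cardiomyocyte markers was 40339 to 46146 CPM in DE TAC hearts, against 61626 to 72692 CPM in DE sham hearts, and 38091 to 62122 CPM in FA TAC hearts, against 56636 to 76005 CPM in FA sham hearts. Myh6 made up the largest part of this sum, with means of 18538 CPM in DE TAC and 32568 CPM in DE sham hearts. In the same groups Myl2 averaged 5772 against 6777 CPM and Actc1 averaged 6232 against 7121 CPM. Tnni3 averaged 2133 against 3971 CPM, Ryr2 2291 against 3750 CPM and Tnnt2 2812 against 4333 CPM. Pln averaged 2694 against 3658 CPM and Myl3 3170 against 4076 CPM. All 8 means were thus lower in DE TAC hearts, by unlike amounts, and Myh6 weighs most in the sum. The sum of 5 fibroblast markers was 1009 to 1290 CPM in DE TAC hearts, against 479 to 543 CPM in DE sham hearts, and 752 to 1333 CPM in FA TAC hearts, against 532 to 575 CPM in FA sham hearts. By edgeR adjusted p, 1 of the 8 cardiomyocyte markers was lower after diesel exhaust, 0 in filtered air and 4 in the average, and 3, 2 and 3 of the 5 fibroblast markers were higher. Over all genes, 1.49%, 0.22% and 3.91% were called lower in these comparisons, and 1.75%, 0.609% and 4.1% higher. The sum of 5 macrophage markers was 188 to 210 CPM in DE TAC hearts, against 112 to 199 CPM in DE sham hearts, and 147 to 219 CPM in FA TAC hearts, against 117 to 132 CPM in FA sham hearts, with 1 marker called higher after diesel exhaust, 0 in filtered air and 2 in the average. Of the smooth muscle and pericyte markers, 1 was called higher and 1 lower in the average. No endothelium, erythroid, adipocyte, atrial or skeletal muscle marker was called in any of the TAC comparisons, and no lung marker was tested. All 8 cardiomyocyte markers were present in each group. The part of these markers in the carrier results was not tested.

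Diesel exhaust against filtered air asked whether the prenatal exposure alone altered the carriers in adult hearts. No member was called in TAC hearts, in sham hearts or in the average over surgery, and edgeR called 0% of all genes in each of the 3 comparisons. At an unadjusted edgeR p under 0.05 there was 1 member in TAC hearts, 1 in sham hearts and 0 in the average, against 1.87%, 3.69% and 3.32% of all genes. Without the 4 libraries that stand apart these counts were 0, 5 and 2 members, against 477, 809 and 1031 genes. Without DE sham replicate 1 they were 1, 4 and 3, against 286, 708 and 630 genes. Without DE sham replicate 2 they were 1, 0 and 0, against 336, 383 and 363 genes. In TAC hearts 2 of 36 members were lower and 1 was higher without overlap, 8.33% of members against 7.71% of all genes. In sham hearts 3 of 36 were higher without overlap, 8.33% against 7.6% of all genes. The groups thus failed to overlap about as often for the carriers as for all genes. DESeq2 and limma voom called no member in any of them.

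In TAC hearts the member with the smallest p was Slc25a22, with 9.79, 9.59 and 6.56 CPM in DE TAC hearts, against 19.2, 10.2 and 11 CPM in FA TAC hearts. Each DE TAC library was below each FA TAC library, at a log2 fold change of -0.63 ± 0.27, with an unadjusted p of 0.0286 and an edgeR adjusted p of 1. The second was Slc25a1, with 5.44, 7.03 and 5.37 CPM in DE TAC hearts, against 3.45, 4.01 and 3.35 CPM in FA TAC hearts. These did not overlap either, at 0.72 ± 0.37 with an edgeR adjusted p of 1.

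In sham hearts it was Slc25a39, with 71.9, 90.6 and 70.6 CPM in DE sham hearts, against 47.7, 59 and 59.9 CPM in FA sham hearts. The groups did not overlap, at a log2 fold change of 0.48 ± 0.18, with an unadjusted p of 0.0148 and an edgeR adjusted p of 0.996. Slc25a36 followed at -0.47 ± 0.25 with an edgeR adjusted p of 0.996. Averaged over surgery, the smallest p-values were those of Slc25a39 at 0.27 ± 0.13 and Slc25a22 at -0.36 ± 0.19, both with an edgeR adjusted p of 0.999.

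The exposure by surgery interaction asked whether the TAC response differed between exposures. No member was called, and 0% of all genes were called. None of the members had an unadjusted edgeR p under 0.05, against 2.4% of all genes. This count depends on the libraries used. It was 4 without the 4 libraries that stand apart, against 367 genes, and 2 without FA sham replicate 1, against 334 genes. With the term for the 4 libraries it stayed at 0, against 472 genes. The smallest p-values among the carriers were those of Slc25a39 (-0.44 ± 0.26, unadjusted p 0.104) and Slc25a11 (-0.35 ± 0.22, unadjusted p 0.117), each with an edgeR adjusted p of 1. For Slc25a42 the interaction was -0.45 with a 95% interval of -1.17 to 0.28. For Slc25a34 the interval was -0.87 to 0.17 and for Slc25a22 it was -1.33 to 0.24. The calls after diesel exhaust and their absence in filtered air are therefore not shown to differ. The intervals are wide enough to hold a smaller, an equal or a larger response after diesel exhaust.

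Other genes of the transport pathway were described from a list of 28, of which 27 were tested. None was called in the 3 TAC comparisons, in either direction, and the median log2 fold change was -0.07 after diesel exhaust, 0.06 in filtered air and -0.01 in the average. The largest estimate was that of Ucp3, the uncoupling protein of muscle and a member of the carrier family under another name. Ucp3 averaged 9.55 ± 3.2 CPM in DE TAC hearts and 32.9 ± 25 CPM in DE sham hearts (SD, n = 3 each), a log2 fold change of -1.79 ± 0.49 with an edgeR adjusted p of 0.0862. Vdac1, the main outer membrane channel, averaged 401 ± 14 CPM in DE TAC hearts and 511 ± 66 CPM in DE sham hearts (SD, n = 3 each), with an edgeR adjusted p of 0.316.

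The promoters of 3 of the 4 called carriers, which have a single RefSeq window each, are printed to show the letters around an annotated start of each gene. A shared control of these genes was not tested. The windows span 250 bases before to 50 after the start on build GRCm38.p6, all on the minus strand and written 5′ to 3′ along the gene, at chr8:70212232-70212531 for Slc25a42, chr4:141623785-141624084 for Slc25a34 and chr11:70646990-70647289 for Slc25a11. Capitals mark a nuclear receptor half-site, AAGGTCA, searched on both strands. It stands in the reverse sense in Slc25a34. The Slc25a11 window lies inside the gene span used elsewhere, which reaches base 70647531 at its 5′ end.
Slc25a42: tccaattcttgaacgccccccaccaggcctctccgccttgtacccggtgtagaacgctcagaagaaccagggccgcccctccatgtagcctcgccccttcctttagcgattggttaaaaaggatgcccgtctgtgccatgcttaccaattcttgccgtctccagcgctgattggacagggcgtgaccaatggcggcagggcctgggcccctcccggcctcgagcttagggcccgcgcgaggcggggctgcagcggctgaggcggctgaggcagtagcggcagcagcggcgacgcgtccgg
Slc25a34: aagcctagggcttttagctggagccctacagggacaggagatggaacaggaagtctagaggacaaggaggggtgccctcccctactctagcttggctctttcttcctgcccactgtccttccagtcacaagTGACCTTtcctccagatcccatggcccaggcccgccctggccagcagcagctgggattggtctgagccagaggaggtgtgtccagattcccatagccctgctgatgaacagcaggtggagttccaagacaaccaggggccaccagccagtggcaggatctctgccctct
Slc25a11: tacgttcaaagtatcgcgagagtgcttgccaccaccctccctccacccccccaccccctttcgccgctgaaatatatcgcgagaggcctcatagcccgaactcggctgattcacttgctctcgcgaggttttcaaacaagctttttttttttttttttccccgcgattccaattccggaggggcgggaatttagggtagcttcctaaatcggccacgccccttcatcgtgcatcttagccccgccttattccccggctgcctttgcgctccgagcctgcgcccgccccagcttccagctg
Of the 45 members, 35 had a window, and Slc25a34 was the 1 of 35 with this half-site, against 5.38% of 27025 genes. The ETS motif CCGGAAG was in 6 of 35, among them Slc25a3 and Slc25a4, against 9.93% of genes. The NRF1 motif was in 2 of 35, against 5.19%. Neither of these was in the 3 windows printed, and a match or its absence describes letters only.

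The members lie on 19 chromosomes, and the 4 called carriers on 4 different ones. Among them, 4 pairs are neighbours, such as Slc25a29 and Slc25a47 on chromosome 12 with 14 kb between them, and Slc25a43 and Slc25a5 on chromosome X with 18.3 kb between them. The longest identical stretch between transcripts of any pair was 48 bases, in Slc25a12 and Slc25a21. By gene span, 14 members overlap another annotated gene, and the overlap of exons was not tested, but Slc25a42, Slc25a34 and Slc25a22 do not.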

How the data were processed

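RNA-seq libraries of total RNA, depleted of ribosomal RNA and read on an Ion semiconductor sequencer, came from 12 mouse hearts. The authors deposited raw counts per Entrez gene; per the submitters' processing notes the tools were cutadapt 1.6, Subread 1.4.2 and featureCounts, with the build mm10. Neither the strand setting nor the handling of multiply mapped reads is stated in the sources used here. Symbols were matched through RefSeq for 25275 genes and GENCODE M21 for 18, and the 1886 genes without one held 4.19% of counts. In all, 2 genes of the family are not reported here.

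CPM with TMM factors were computed from the deposited counts, and exon lengths came from GENCODE M21. In R 4.3.3, edgeR 4.0.16 kept genes by filterByExpr with a count minimum of 10 and fitted a quasi-likelihood model (robust) with 4 group means to the 12 libraries, which leaves 8 residual degrees of freedom. Benjamini-Hochberg adjustment ran over 13626 genes within each of 7 comparisons, with a threshold of 0.05. Errors are SE for log2 fold changes and SD for CPM. The model was tested on simulated data. Alternatives used RLE factors, library totals, other filters, DESeq2 1.42.0, limma 3.58.1 (voom) and fits without a library. Further fits used only the libraries of a comparison, or left out the mitochondrially encoded genes, which held 18.3% to 32.4% of a library's counts. Counting floors cover counting error only.

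For members past the threshold, values per library, fold change, SE and adjusted p are given for the comparisons that called them. Values per library are also given for the 4 most abundant members. The 2 smallest p in each comparison without a call have a fold change, SE and adjusted p, but not all have values per library. Other members were named for their role or after their values were seen. The members and lists were chosen with earlier results of these data known.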

Additional observations from a re-analysis of the deposited data

How the results depend on the processing

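With library totals in place of TMM factors, 1 carrier was called after diesel exhaust and 2 in the average over exposure, against 3 and 4 with TMM. With a term for the 4 libraries that stand apart, 6 and 7 were called. Leaving out 1 library at a time gave 0 to 4 carriers after diesel exhaust, 1 to 5 in the average and 0 in filtered air. Over all genes, the called genes after diesel exhaust, in filtered air and in the average were 442, 113 and 1091. These became 668, 250 and 1373 with DESeq2, 624, 247 and 1262 without a filter, and 780, 261 and 1578 with the term for the 4 libraries, and leaving out 1 library gave 188 to 530, 39 to 143 and 631 to 1213. No paired analysis was possible because the labels match no animal of 1 group to an animal of another, and the replicate numbers used here are only the sample order.

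Estimates near 0 changed sign, none of them called in any fit. With library totals these were Slc25a39 for TAC in filtered air at 0.02, Slc25a22 at 0.00 and Slc25a1 at 0.08 for exposure in sham hearts, and Slc25a34 at 0.03 and Slc25a42 at 0.03 for exposure averaged over surgery. Without the 4 libraries they were Slc25a36 for TAC in filtered air at 0.00, Slc25a25 for exposure in TAC hearts at -0.38, Slc25a1 for exposure in sham hearts at 0.29, and Slc25a34 at 0.10 and Slc25a42 at 0.15 for exposure averaged over surgery. Across fits without 1 library, exposure in sham hearts ran from -0.12 to 0.15 for Slc25a1, -0.18 to 0.07 for Slc25a22 and -0.04 to 0.21 for Slc25a34. Exposure in TAC hearts ran from -0.26 to 0.44 for Slc25a25, -0.09 to 0.19 for Slc25a39 and -0.48 to 0.10 for Slc25a42. The average over surgery ran from -0.16 to 0.14 for Slc25a42, the interaction from -0.66 to 0.04 for Slc25a25 and TAC in filtered air from -0.13 to 0.21 for Slc25a36. The cause was not tested for any of these.

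Depth limits the 9 untested carriers, and 3 libraries per group limit the contrast between exposures: the 95% interval of the interaction for Slc25a42 spanned -1.17 to 0.28. Counts of carriers whose gene spans overlap other genes may hold their reads.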
